A study of Mus musculus with 10 samples.

Results

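Both arms of the mmu-miR-21a and mmu-miR-210 hairpins, 4 of the 1340 mature miRNAs in the deposited table, were followed through 10 small RNA libraries from the RPE/choroid/sclera of the mouse eye, that is the retinal pigment epithelium, the vascular choroid behind it and the fibrous sclera. They were taken by name, and all 4 rows were present and above 0 in every library. The animals were wild type C57BL/6J mice of postnatal day 34, made myopic by a -20 D lens worn before one eye for 10 days, starting at postnatal day 24, while the contralateral eye had no lens. The libraries are 5 left and 5 right eyes, which share the numbers 61, 64, 65, 66 and 68 in pairs. The labels do not say which eye of a pair wore the lens, so no library is called treated or control, and the comparisons are right against left eye, one number against another, and the gap between the eyes of a number regardless of side.

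A miRNA is cut from a hairpin whose stem carries one candidate strand in each arm (5p and 3p), and the strand that is kept guides silencing of mRNAs that match its seed, bases 2 to 8. miR-21 is raised by TGF-beta, whose receptor-activated Smad proteins promote cutting of its primary transcript, and it is known for its part in fibroblast activation and fibrosis. miR-210 is a target of the hypoxia-inducible factors and is known for lowering mitochondrial respiration when oxygen is short. Hypoxia of the sclera and remodelling of its collagen matrix have both been proposed to act in myopia, which is why these miRNAs are of interest in this tissue.

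The 4 mature sequences are printed with the seed in capitals, since the seed decides which mRNAs each strand can silence (RefSeq, GRCm38.p6, 5′ to 3′).

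mmu-miR-21a-5p: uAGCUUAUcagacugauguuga

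mmu-miR-21a-3p: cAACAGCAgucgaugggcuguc

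mmu-miR-210-3p: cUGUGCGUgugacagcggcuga

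mmu-miR-210-5p: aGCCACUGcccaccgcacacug

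No 2 of the 4 share a seed. In the sequence table mmu-miR-21c had the seed of mmu-miR-21a-5p, and the seeds of the other 3 were held by no other mature miRNA. The near copies mmu-miR-21b and mmu-miR-21c are shown because their reads could be mistaken for those of mmu-miR-21a-5p.

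mmu-miR-21b: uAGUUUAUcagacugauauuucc

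mmu-miR-21c: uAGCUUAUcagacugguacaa

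Counted from the 5′ end of mmu-miR-21a-5p, mmu-miR-21b differs by C4U, G18A, G21U and A22C, so its seed differs too. The differences of mmu-miR-21c are A16G, G18A, U19C, U20A and G21A, all outside the seed. Neither copy was more than barely listed. mmu-miR-21b had a signal between 0 and 2.17 and was at 0 in 2 libraries, and mmu-miR-21c was at 0 in 9 libraries and had 3.83 in right eye 68.

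The miR-21a hairpin lies on the minus strand at chr11:86584067-86584158 (GRCm38), inside the 3′ UTR in exon 12 of Vmp1, a gene for a membrane protein of autophagy (GENCODE vM21). Its 5p arm is at chr11:86584120-86584141 and its 3p arm at chr11:86584082-86584103. Bases 9 to 13 of mmu-miR-21a-5p read CAGAC, the letters known from the stem element that Smad proteins bind. The same 5 letters were found on the transcript strand of 80 of the 1005 hairpins in the table (7.96%). The match is a description of the letters only. The miR-210 hairpin lies on the minus strand at chr7:141221384-141221493, where GENCODE vM21 has no gene other than Mir210 itself. It is printed with both arms in capitals to show how the 5p strand at chr7:141221445-141221466 and the 3p strand at chr7:141221407-141221428 face each other, and the letters CAGAC are not in it.

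Mir210: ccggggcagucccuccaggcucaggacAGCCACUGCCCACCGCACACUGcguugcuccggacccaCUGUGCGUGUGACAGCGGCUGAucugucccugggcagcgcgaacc

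The values are the authors' normalised signal. The sum of the signal was between 11878152 and 11879036 in the 10 libraries, and at 132 of the 134 highest ranks the 10 values spanned less than 1% of their mean, so an abundant miRNA takes the value of the rank it holds. Depth per library is unknown, and no counting interval or floor is given. The defining markers of the labelled tissue, miR-204-5p and miR-211-5p for pigment epithelium and miR-143-3p, miR-145a-5p, miR-199a-3p and miR-214-3p for fibroblasts and smooth muscle, were above 0 in every library. Retina markers were present too, and their sum was 1330 k (k for 1000 units of signal) in right eye 68 against 189 to 473 k in the other libraries. Tests, spans, gaps and correlations of the members that rest on right eye 68 are given with and without it. The counts of miRNAs with a smaller gap are given only with it. In whole tissue, fewer cells of a type and less RNA per cell cannot be told apart.

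mmu-miR-21a-5p, the guide strand of miR-21a, was the most abundant of the 4, with a mean signal of 24969 ± 2278 (SD, n = 10 libraries), rank 51 by mean signal. Number 61 had 21427 in its left and 23999 in its right eye, while both eyes had 22482 in number 64 and both had 25150 in number 65. Both eyes of number 66 and both eyes of number 68 had 27249. Only number 61 showed a gap between its eyes, and the 4 libraries of numbers 61 and 64 were the 4 lowest. These values are 5 rank steps, from rank 53 in left eye 61 to rank 48 in the eyes of numbers 66 and 68. A value shared by both eyes therefore means the same rank, and a change smaller than a step cannot be seen. The same value in both eyes in at least 4 of the 5 numbers was found for 3 of the 588 miRNAs tested (0.51%), of which this is one. That share is over all miRNAs tested, while shared rank values were shown only for the 134 highest ranks.

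mmu-miR-21a-3p, the strand mostly discarded from the same hairpin, had a mean signal of 101 ± 31.96 (SD, n = 10). Left before right, its values were 125 and 151 for number 61, 118 and 121 for 64, and 80.3 and 76.1 for 65. Number 66 had 48.4 and 67.3, and number 68 had 124 and 100.2. Numbers 65 and 66 were low in both eyes. The highest library was 3.12 times the lowest, against 1.27 times for the 5p arm. The order of the numbers was not that of the 5p arm, since number 66 had the lowest 3p and, with number 68, the highest 5p values.

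mmu-miR-210-3p, the strand of miR-210 that is induced in hypoxia, had a mean signal of 1654 ± 277 (SD, n = 10), at rank 138 by mean. Left before right, its values were 1618 and 1481 for number 61, 1811 and 1982 for 64, and 1811 and 1452 for 65. Number 66 had 1811 and 1209.8, and number 68 had 1335 and 2028. Left eyes 64, 65 and 66 all held rank 133 and so had the same value. Rank steps therefore limit this strand too. The left eye was the higher one in numbers 61, 65 and 66 and the right eye in 64 and 68, so the sides overlapped throughout. The lowest and the highest library were both right eyes. The highest was right eye 68, which also had the highest sum of retina markers, and the part of retinal RNA in its value was not tested.

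mmu-miR-210-5p, the minor strand, had a mean signal of 93.6 ± 34.7 (SD, n = 10). Left before right, its values were 82.3 and 84.4 for number 61, 67.3 and 70.7 for 64, and 97.7 and 95.7 for 65. Number 66 had 88.3 and 62.1, and number 68 had 103 and 185. Right eye 68 stood above all other libraries, which lay between 62.1 and 103. That library also had the highest sum of retina markers, and the part of retinal RNA in the value was not tested.

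**Figure D1:**
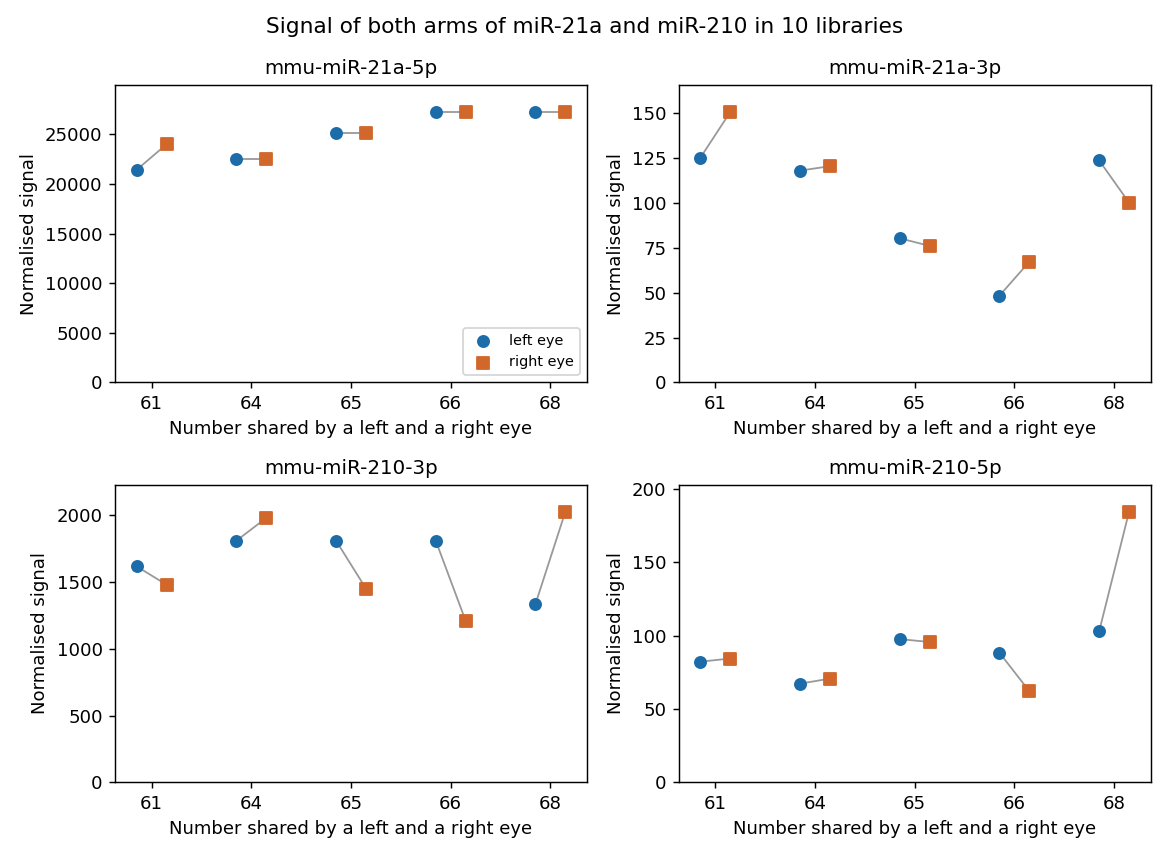
Normalised signal (vertical axes, from 0, a scale for each miRNA) of the 4 miRNAs by the number shared by a left eye (circle) and a right eye (square), each point 1 library, with a line joining the eyes of a number. The eyes of a number coincide for mmu-miR-21a-5p except in number 61, and mmu-miR-210-5p is highest in right eye 68 at 185.

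All 4 strands are 22 bases long, and their signals are set side by side as normalised values. How fully each strand was captured is unknown, so the ratios are of signal and not of molecules. In all 10 libraries mmu-miR-21a-5p was above mmu-miR-210-3p, 15.1-fold by the means, and mmu-miR-210-3p was above mmu-miR-21a-3p, 16.4-fold by the means, with no overlap in either case. mmu-miR-21a-3p and mmu-miR-210-5p did not differ beyond their spread, as the former was higher in 6 of 10 libraries.

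The first comparison asked whether right and left eyes differ in these miRNAs. None of the 4 passed an adjusted p of 0.05 in limma, fitted on log2(signal + 1) over the 588 miRNAs with a mean signal of at least 10 and with the shared number as a block, and none had an unadjusted p under 0.05. Of all 588, 0 passed (0%) and 13 had an unadjusted p under 0.05 (2.21%). Left eyes had 24711 ± 2685 of mmu-miR-21a-5p and right eyes 25226 ± 2075 (SD, n = 5 per side). The log2 fold change was 0.03, with a standard error of 0.06 and adjusted p = 0.967 in limma. It was higher in the right eye in 1 number and equal in 4. None of the 4 miRNAs was higher in the right eye in all 5 numbers, as 12 of the 588 were (2.04%). Its 95% interval reached from 0.927-fold to 1.13-fold, with the limit that rank steps set on so abundant a miRNA.

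Of mmu-miR-21a-3p, left eyes had 99.1 ± 33.8 and right eyes 103 ± 33.9 (SD, n = 5 per side), higher in the right eye in 3 of 5 numbers. The log2 fold change was 0.08, the 95% interval 0.834-fold to 1.33-fold and the adjusted p = 0.967 in limma. Without number 66, or left eye 66, the direction turned, to -0.02, and without number 68 or right eye 68 the value was 0.17.

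Of mmu-miR-210-3p, left eyes had 1677 ± 208 and right eyes 1630 ± 358 (SD, n = 5 per side), and it was higher in the right eye in 2 of 5 numbers. Its log2 fold change was -0.06, with a 95% interval from 0.729-fold to 1.26-fold and adjusted p = 0.969 in limma. The direction turned without number 65 (0.006) and without number 66 or left eye 66 (0.07), and the value was -0.22 without number 68 or right eye 68.

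Of mmu-miR-210-5p, left eyes had 87.7 ± 14.0 and right eyes 99.5 ± 49.3 (SD, n = 5 per side), higher in the right eye in 3 of 5 numbers. Its log2 fold change of 0.08, with a 95% interval from 0.772-fold to 1.45-fold and adjusted p = 0.967 in limma, rested on right eye 68. Without that library, or without number 68, it was -0.11. Without number 66 or left eye 66 it was 0.23. Each of the 4 intervals ended short of a 1.5-fold difference between sides on this scale, and a lens worn on different sides by different animals would be averaged out in them.

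The gap between the eyes of a number does not depend on which eye wore the lens, and takes in lens, side and the error of both libraries together. It has no test. The higher eye exceeded the lower one in mmu-miR-21a-5p by at most 1.12-fold, in number 61. For mmu-miR-21a-3p the largest gap was 1.38-fold, in number 66. mmu-miR-210-3p had gaps of 1.09-fold in numbers 61 and 64, 1.25-fold in 65, 1.496-fold in 66 and 1.52-fold in 68. In the last 2 the gaps went opposite ways, the right eye being low in 66 and high in 68. mmu-miR-210-5p differed by at most 1.05-fold in numbers 61, 64 and 65, by 1.42-fold in 66 and by 1.78-fold in 68. Number 68 holds right eye 68. Without that number the largest gaps of the 3p and 5p arms of miR-210 were the 1.496-fold and 1.42-fold of number 66. Over the 588 miRNAs the median of the largest gap was 1.496-fold, and 17, 222, 301 and 400 of them had a smaller one than mmu-miR-21a-5p, mmu-miR-21a-3p, mmu-miR-210-3p and mmu-miR-210-5p. The gaps of both miR-210 arms went the same way in 4 of 5 numbers, with the left eye higher in 65 and 66 and the right eye in 64 and 68, and opposite ways in number 61.

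**Figure D2:**
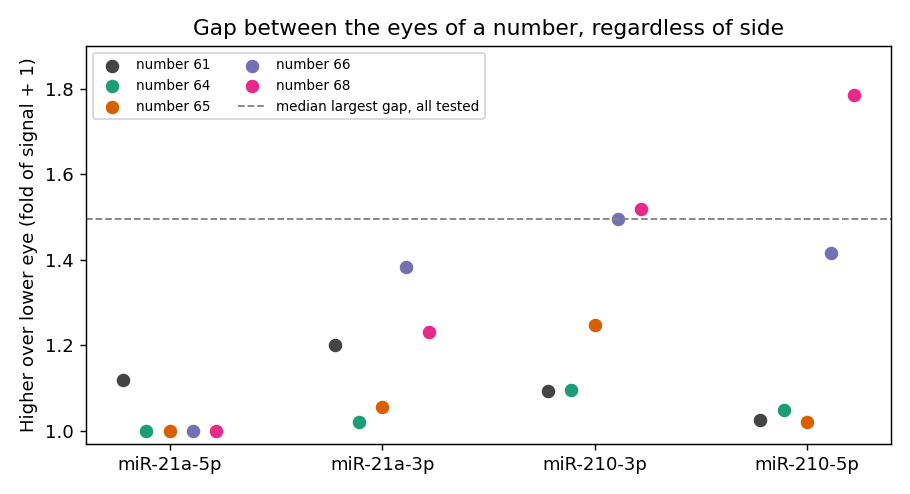
Ratio of the higher to the lower eye of each number in signal + 1 (vertical axis, 1 means equal) for the 4 miRNAs, each point 1 number. The dashed line is the median over 588 miRNAs of the largest of the 5 gaps, 1.496-fold, which mmu-miR-210-3p passes in number 68 at 1.52-fold and mmu-miR-210-5p at 1.78-fold.

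The second comparison asked whether the 5 numbers differ from each other, with 2 libraries each. Of the 4 miRNAs, 0 passed the limma F-test at an adjusted p of 0.05, and 1 had an unadjusted p under 0.05, where over all miRNAs 7 of 588 passed (1.19%) and 137 had an unadjusted p under 0.05 (23.3%). That miRNA was mmu-miR-21a-3p, whose mean over both eyes ran from 57.8 in number 66 and 78.2 in number 65 to 138 in number 61 (unadjusted p = 0.00489, adjusted p = 0.0941 in limma). It passed, at adjusted p = 0.0498, if no term for side was fitted. Its span on the log2 scale was 1.25, and 0.81 without number 66. The mean of mmu-miR-21a-5p ran from 22482 in number 64 to 27249 in numbers 66 and 68, a 1.21-fold span (adjusted p = 0.217 in limma). mmu-miR-210-3p spanned 1.28-fold between the means of numbers (adjusted p = 0.833 in limma), and single libraries moved this span, which was 0.36 on the log2 scale, to 0.65 without left eye 66, 0.50 without right eye 68 and 0.15 without number 64. The mean signal of mmu-miR-210-5p ran from 69.0 in number 64 to 144 in number 68. Between the number means of log2(signal + 1) it spanned 1.99-fold (adjusted p = 0.276 in limma). That span rested on right eye 68, since on the log2 scale it was 0.99 with all libraries, 0.57 without that eye and 0.48 without number 68. A number may stand for an animal, a litter, a dissection or a day, and these cannot be told apart here.

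The arms of a hairpin come from 1 transcript. Their ratio takes in which strand is kept or survives, the capture of each strand and the normalisation, which cannot be told apart here. For miR-21a the ratio of 5p to 3p signal was, left before right, 171 and 159 for number 61, 190 and 187 for 64, 313 and 331 for 65, 563 and 405 for 66, and 220 and 272 for 68. The 3p strand made up 0.177% to 0.624% of the signal of both arms, least in number 66. For miR-210 the ratio of 3p to 5p was 19.7 and 17.5 for number 61, 26.9 and 28.0 for 64, 18.5 and 15.2 for 65, 20.5 and 19.5 for 66, and 13.0 and 10.99 for 68. Its 5p strand made up 3.44% to 8.34%, most in number 68. Among 158 hairpins with both arms tested, miR-21a had the 22nd largest mean ratio and miR-210 the 65th, and the median hairpin had a 12.8-fold ratio. These are ratios of normalised signals and not of reads.

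The log2 ratio of 5p to 3p did not pass between right and left eyes in limma for miR-21a (a difference of -0.04, 95% interval -0.39 to 0.30, adjusted p = 0.974) or for miR-210 (0.14, interval -0.11 to 0.39, adjusted p = 0.934), and 0 of 158 hairpins passed (0%, with 3, or 1.9%, at an unadjusted p under 0.05). The difference for miR-21a turned to 0.06 without number 66 or left eye 66. The 3p to 5p ratio of miR-210 was lower in the right eye in 4 of 5 numbers. The ratios of neighbouring numbers overlapped in part, as for miR-210 in numbers 61 and 65, and the eyes of number 66 lay further apart for miR-21a (563 and 405) than the means of numbers 61 and 64. The mean ratio of 5p to 3p for miR-21a was 165 in number 61, 189 in 64, 246 in 68, 322 in 65 and 484 in 66. The mean ratio of 3p to 5p for miR-210 was 12.0 in number 68, 16.9 in 65, 18.6 in 61, 19.99 in 66 and 27.5 in 64. The 2 hairpins did not share the order of the numbers.

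In a limma F-test between numbers, added after these values were seen, both hairpins passed at adjusted p = 0.0327, as did 17 of the 158 (10.8%). The span between numbers, taken on the means of the log2 ratios, was 2.86-fold for miR-21a and 2.28-fold for miR-210, where the median hairpin spanned 1.74-fold. By itself mmu-miR-21a-3p spanned 2.38-fold between numbers, and mmu-miR-21a-5p, held to rank steps, 1.21-fold. The call did not hold without a filter on low signal, with adjusted p = 0.333 for miR-21a and 0.412 for miR-210 among 441 hairpins. It held for both hairpins with pseudocount 10 or 0.1, no mean-variance trend, rescaling, no term for side, and ranks. There the adjusted p in limma lay between 0.0182 and 0.0387. At a mean of at least 100 it held for miR-21a (0.00223). It was lost for miR-21a without any 1 of the numbers 61 (adjusted p = 0.0887), 64 (0.0776), 65 (0.0585), 66 (0.0897) and 68 (0.0993), without right eye 68 (0.112) and without left eye 66 (0.0646). For miR-210 it was lost without number 61 (0.0620), 64 (0.141), 65 (0.0585), 68 (0.212) or right eye 68 (0.144), and it held without number 66 (0.0385) and without left eye 66 (0.0494).

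**Figure D3:**
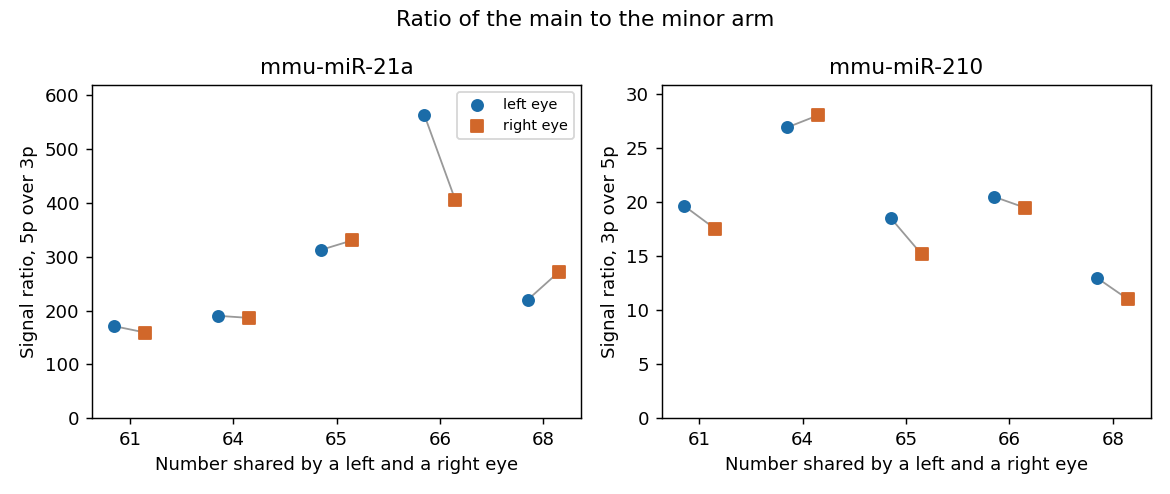
Ratio of the main to the minor arm (vertical axes, from 0) of miR-21a (5p over 3p) and miR-210 (3p over 5p) by number, with left eyes as circles, right eyes as squares and a line joining the eyes of a number. Number 66 has the highest ratios of miR-21a, 563 and 405, and number 64 the highest of miR-210, 26.9 and 28.0.

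The miRNAs known to be raised by TGF-beta or to act with it in fibrosis were taken as a list of 11, both arms of miR-21a among them. All 11 were tested and 0 passed as higher or lower in the right eye, and 0 had an unadjusted p under 0.05. The mean was higher in right eyes for 10 of 11, where it was higher for 54.3% of all miRNAs, but the differences were small. The median log2 fold change was 0.03, beside 0.02 over all miRNAs. The 2 most abundant members beside miR-21a were miR-143-3p of smooth muscle and fibroblasts, with 793902 ± 78507 (SD, n = 10) and a log2 fold change of 0.02, and miR-199a-3p of fibroblasts, with 97784 ± 8464 and 0.02. The range ran from -0.17 in miR-145a-5p, which is co-transcribed with miR-143, to 0.26 in miR-199a-5p. The summed fibroblast and smooth muscle markers were 842 to 1060 k in left and 836 to 1008 k in right eyes. Between numbers 0 of the 11 passed, where 1.19% of all miRNAs did.

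The opposing list of 11 miRNAs that restrain fibrosis or are lowered by TGF-beta had 0 members that passed, with 2 at an unadjusted p under 0.05, where 2.21% of all miRNAs had one. These 2 went opposite ways, miR-30c-5p being higher in right eyes (unadjusted p = 0.0274 in limma) and miR-141-3p lower (0.0404). Over the list the mean was higher in right eyes in 4 and lower in 7, where 54.3% of all miRNAs were higher. The median log2 fold change of the list was -0.08. The most abundant were miR-30c-5p, which targets connective tissue growth factor, with 63160 ± 16701 (SD, n = 10) and a log2 fold change of 0.18, and let-7d-5p, with 57611 ± 12425 and -0.04. The 5 members of the miR-200 family, which keep cells epithelial, had the low values, from -0.87 in miR-429-3p to -1.21 in miR-200b-3p. The sum of the surface epithelium, cornea and lens markers, which holds 2 of these 5, lay at 63.8 to 245 k in left and 25.3 to 205 k in right eyes and was higher in the right eye in 1 of 5 numbers. The log2 difference of that sum was -0.78, and -0.23 without number 66. The part of that tissue in the list was not tested. The 3p strands of miR-29, which target collagen mRNAs, had 0.10 for miR-29a-3p, 0.19 for miR-29b-3p and 0.12 for miR-29c-3p. Between numbers 2 of the 11 passed, miR-30c-5p (adjusted p = 0.0261 in limma) and miR-29c-3p (0.0430). Over all miRNAs 1.19% passed.

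Of 17 miRNAs known to respond to hypoxia, both arms of miR-210 among them, 0 passed between right and left eyes and 0 had an unadjusted p under 0.05. The mean was higher in right eyes in 10, lower in 6 and equal in 1, where 54.3% of all miRNAs were higher. The median log2 fold change was 0.05, beside 0.02 over all miRNAs. The equal one was miR-26a-5p, at 898615 ± 62394 (SD, n = 10), which with miR-26b-5p (158971 ± 32265, log2 fold change 0.28) was the most abundant beside miR-210. The miR-26b-5p value was also the highest of the list, and the lowest was -0.24 in miR-107-3p. miR-322-5p, the mouse counterpart of human miR-424 and induced in hypoxic endothelium, had 0.06, and miR-155-5p of activated leukocytes, which is in the TGF-beta list too, had 0.08. Between numbers 0 of the 17 passed, where 1.19% of all miRNAs did. Of the members of this list, mmu-miR-210-3p had -0.06 and mmu-miR-210-5p 0.08.

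**Figure D4:**
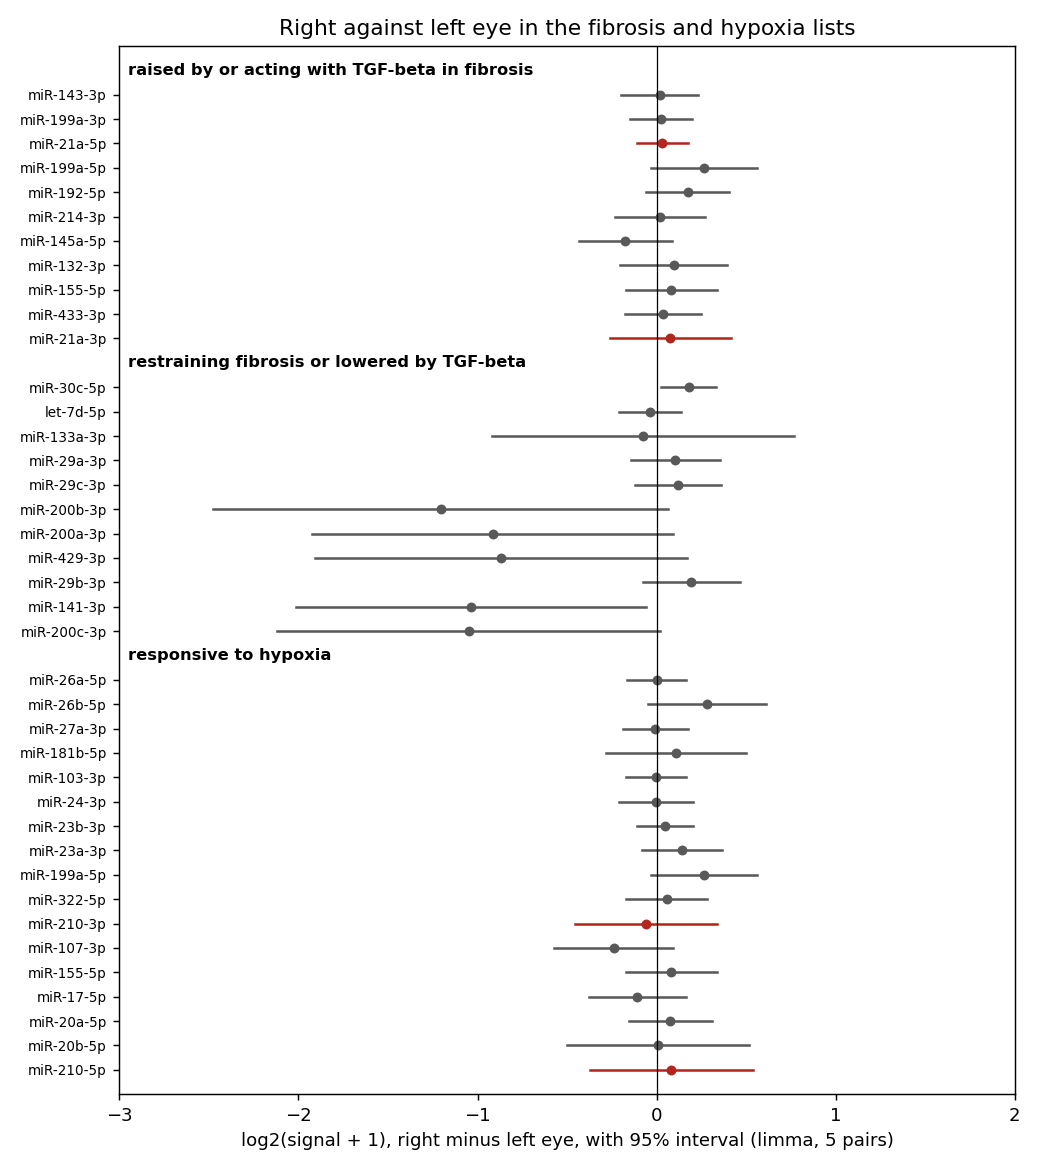
Right minus left eye in log2(signal + 1), points with 95% intervals from limma over 5 pairs, for the members of the 3 lists in order of mean signal, both arms of miR-21a and miR-210 in red. The 4 red points lie between -0.06 and 0.08, and the 5 members of the miR-200 family lie lowest, with wide intervals.

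The miRNAs whose log2 signal was most like that of each member over the 10 libraries are given as a description. The libraries share 5 numbers and the same rank steps. For mmu-miR-21a-5p they were miR-335-5p (Pearson r = 0.948), miR-148b-3p (0.911) and miR-30e-5p (0.891). For mmu-miR-21a-3p they were miR-186-3p (0.896), miR-5130 (0.747) and miR-378c (0.741). The 2 arms of miR-21a had no neighbour in common. For mmu-miR-210-3p they were miR-181b-5p (0.877), a member of the hypoxia list, miR-124-5p (0.818) and miR-135a-5p (0.817).

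For mmu-miR-210-5p they were miR-873a-5p (0.961), miR-153-3p (0.956) and miR-384-5p (0.878). These 3 were all highest in right eye 68, like mmu-miR-210-5p. miR-153-3p had 577 there and at most 261 elsewhere, miR-873a-5p had 146 and at most 56.6, and miR-384-5p had 317 and at most 114. Without right eye 68 the values of r over 9 libraries were 0.869 for miR-873a-5p, 0.861 for miR-153-3p and 0.627 for miR-384-5p. The likeness of mmu-miR-210-3p to miR-124-5p, the minor strand of the neuronal miR-124, was 0.805 without right eye 68, where miR-124-5p had 120 against at most 46.3 in the others. miR-181b-5p was highest in right eye 68 too, at 108143 against at most 89670.5 in the others. Its r with mmu-miR-210-3p was 0.864 without that library.

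Leukocytes express miR-21 and striated muscle and blood are often carried with this tissue, so their markers are given beside the members. All 5 leukocyte markers were above 0 in every library, with a sum of 18.0 to 22.9 k in left and 18.6 to 23.1 k in right eyes. The endothelial sum, from miR-126a-3p and miR-126a-5p, was 201 to 267 k and 198 to 342 k, the striated muscle sum 25.9 to 104 k and 42.3 to 78.5 k, the erythroid sum 35.0 to 53.0 k and 26.0 to 59.7 k, and the pigment epithelium sum 1969 to 1989 k and 1959 to 1989 k. Most of the last sum is miR-204-5p, which has the same value in every library under the normalisation, so its steadiness says nothing of the amount of pigment epithelium, and the other marker, miR-211-5p, had a log2 fold change of -0.13. The exact two-sided sign-flip permutation over the 5 pairs passed for none of the 8 marker sums (all adjusted p = 0.9375, lowest exact p = 0.3125 for surface epithelium, where 0.0625 is the smallest the design allows).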

How the data were processed

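Small RNA was sequenced from 5 left and 5 right eyes, with libraries made from the small RNA fraction by the TruSeq kit, per the labels' protocols. The extract protocol speaks of retinae and the tissue label of RPE/choroid/sclera, and the label was followed. The deposited table gives a normalised signal per mature miRNA from the authors, made with Bowtie and Partek on GRCm38 (mm10), per the submitters' processing notes. The normalisation method was not given in the sources used here. Of the authors' values above 0, 7.31% are whole within 0.001, so no count model was used.

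Values were analysed as log2(signal + 1) over the 588 miRNAs with a mean of at least 10 (99.988% of the signal) in R 4.3.3 (limma 3.58.1) with two-sided tests, a mean-variance trend, Benjamini-Hochberg adjustment over all miRNAs and the number as a block, since the protocol compares an eye with the contralateral one. On that scale the fold change of a low miRNA is understated. Nothing in the labels says whether libraries come from separate litters or runs. The limma p-values are set against the spread left within the numbers of these libraries, moderated over all miRNAs. On simulated data with 200 of 588 miRNAs changed between sides, 62.4% of 1.5-fold and 82.3% of 2-fold changes were called, and 1.43% of unchanged miRNAs. The simulated noise was independent, at each miRNA's own spread, and was not put through rank steps. The shares therefore do not hold for a miRNA held to rank steps, such as mmu-miR-21a-5p. Those shares are over all miRNAs, and the share for the 4 members by themselves, or with fewer miRNAs changed, was not tested. The 2 eyes of a number deviated from the means of their sides with correlations of 0.120, 0.447, 0.0128, -0.133 and 0.285 for numbers 61 to 68, over 0.1 in 3 of 5, so the values do not establish the pairing.

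Sequences and their coordinates are RefSeq's (GRCm38.p6), matched by name for 1135 of 1340 miRNAs and all 4 members. The file's stop positions of the members are 1 base beyond them. Named miRNAs are the members, their near copies, the 3 most alike by Pearson r, and of each list the 2 most abundant. Other list members were named after their values were seen, as extremes of a range or for their known role. The members and lists were chosen with earlier results of these data known. Alternatives changed the filter, pseudocount, trend, scale, block, side term and libraries.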

Additional observations from a re-analysis of the deposited data

How the results depend on the processing

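Between right and left eyes no setting gave a passing miRNA, the fit with no replicate block included (0 of 588, 12 at an unadjusted p under 0.05), and dropping the block changed no call for the pairs of eyes. With single numbers or eyes left out, the log2 fold change ran from -0.021 to 0.171 for mmu-miR-21a-3p, from -0.224 to 0.0716 for mmu-miR-210-3p and from -0.11 to 0.23 for mmu-miR-210-5p. The difference in the 5p to 3p ratio of miR-21a ran from -0.130 to 0.0619, and 0 to 1 hairpins passed between sides (1 without number 61). mmu-miR-21a-5p ran from 0 to 0.04. Its direction could not turn, since only number 61 had a gap between its eyes, so this range says nothing of its steadiness. The count of miRNAs that passed between numbers, 7 as reported, was 23 of 339 at a mean of at least 100, 12 after rescaling, 26 with no term for side, 0 with no mean-variance trend, and 0 to 22 with single numbers or eyes left out. Without the side term mmu-miR-21a-3p passed, its span still 1.25 on the log2 scale. With numbers or eyes left out, the log2 span ran from 0.265 to 0.277 for mmu-miR-21a-5p, 0.805 to 1.25 for mmu-miR-21a-3p, 0.153 to 0.646 for mmu-miR-210-3p and 0.481 to 1.14 for mmu-miR-210-5p. For the 5p to 3p ratio between numbers, 17 hairpins passed as reported, 0 with no filter, 29 of 85 at a mean of at least 100, 30 with pseudocount 10, 26 on ranks, and 0 to 21 with numbers or eyes left out. The spans of miR-21a and miR-210 with no filter were again 1.52 and 1.19, and with numbers or eyes left out 0.95 to 1.52 and 0.71 to 1.19. In the marker sums the log2 difference ran, with 1 number left out, from -0.00537 to 0.000779 for pigment epithelium, -0.40 to 0.39 for retina, -0.0408 to 0.10 for fibroblasts and smooth muscle, -0.0403 to 0.12 for leukocytes, -0.51 to 0.15 for striated muscle, -0.30 to 0.0434 for erythroid markers, 0.00554 to 0.202 for endothelium and -1.10 to -0.234 for surface epithelium, cornea and lens. The causes were not tested. mmu-miR-210-5p and its hairpin have no value at a mean of at least 100. The ranks, both settings without a single eye and the ratio test between numbers were chosen after seeing the data. No depth is known, and rank steps limit what can be seen in mmu-miR-21a-5p and in the higher values of mmu-miR-210-3p.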
